A study of Mus musculus with 12 samples.

Results

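The E2F and DP transcription factors were followed through the differentiation of mouse muscle cells, with and without the compound PFI-3. The members are the 8 E2F genes, E2f1 to E2f8, and the 2 DP genes, Tfdp1 and Tfdp2. They were found by gene symbol, in a choice made with earlier results of these data known. They make up 10 of the 16288 genes listed in at least 1 library. All 10 were listed in each of the 12 libraries and passed the filter on low counts.

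E2F proteins bind the promoters of genes for DNA replication and cell division, most of them as a dimer with a DP protein. E2F1, E2F2 and E2F3 are known as activators, while E2F4 and E2F5 repress in complex with pocket proteins of the retinoblastoma family. E2F6 represses together with Polycomb proteins and needs no pocket protein, and the atypical members E2F7 and E2F8 repress without a DP partner. In muscle the retinoblastoma protein is known for holding E2F target genes off when myoblasts leave the cell cycle and differentiate.

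RNA was sequenced from C2C12 cells, an immortalized line of mouse myoblasts, in 6 groups of 2 libraries named A and B. The stages were proliferating cells in growth medium (GM) and cells 24 h or 48 h after the switch to differentiation medium (DM 24h and DM 48h), a low-serum medium to which insulin was added in both treatments. At each stage the cells received DMSO, the vehicle, or 50 uM PFI-3, a compound that binds bromodomains of the chromatin-remodelling ATPases BRM and BRG1 and of PBRM1. Treatment began 12 h before harvest for GM and 12 h before the switch for the DM groups, and was renewed every 24 h in differentiation medium. No group carried an introduced allele, and all libraries come from 1 cell line.

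Levels are given as FPKM, fragment counts corrected for the length of the transcript and the size of the library, and comparisons as log2 fold changes with their standard errors (SE) from edgeR's quasi-likelihood test on the counts. An adjusted p under 0.05 made a call, and 12545 genes were tested. Total expected counts ran from 12576374 to 13658352 per library. The GM pairs varied more than the others: the SD of the log2 ratio between libraries A and B was 0.312 (GM DMSO) and 0.281 (GM PFI-3), against 0.131 to 0.14 in the 4 DM pairs. The labelled myoblast identity was borne out by Myod1, Myf5 and Des, whose summed FPKM ran from 182.13 to 950.02. Markers of endothelial, adipocyte, epithelial and Schwann cells summed to at most 0.84 in any library. The immune list reached 7.85, all but 0.03 of it in any library from Cd68, while Ptprc was at 0 in 10 libraries and Cd3e was in no table. Because these are bulk samples, fewer cells of a kind and less RNA per cell cannot be told apart in any result.

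The promoters of the family were searched for E2F words because several members are themselves known E2F targets. RefSeq promoter windows (250 bases before to 50 after a start site, build GRCm38.p6) were matched for 8 of the 10 members, leaving out E2f4 and E2f5. The words searched on both strands were TTTCCCGC, TTTCGCGC, TTTGCCGC and TTTGGCGC, which 2.26% of the 32851 windows in the table hold. A word lay in a window of E2f2, E2f3, E2f7 and Tfdp1, and none in those of E2f1, E2f6, E2f8 and Tfdp2. The E2f1 window covers an internal start site, 154569377 to 154569676 on chromosome 2. Both Tfdp2 windows, which begin at 96258455 and 96258998 on chromosome 9, are internal too, as the gene starts at 96196246. The E2f8 window ends at 48881846 on chromosome 7, short of the gene's outer end at 48882073. The lack of a word thus does not cover the outermost start sites of E2f1, E2f8 and Tfdp2. The 3 stretches below are those of the members with a word before the start site. Each is written 5′ to 3′ on the gene's strand, and the capitals mark the word, which lies on the opposite strand in all 3.
Tfdp1, chr8:13338683-13338740 (+): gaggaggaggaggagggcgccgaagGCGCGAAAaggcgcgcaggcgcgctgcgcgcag
E2f7, chr10:110745216-110745273 (+): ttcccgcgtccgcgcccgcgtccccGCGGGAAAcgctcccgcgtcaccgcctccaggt
E2f3, chr13:29986064-29986099 (-): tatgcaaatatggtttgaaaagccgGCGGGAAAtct
Relative to the start site the word lay at -43 to -36 in Tfdp1, at -198 to -191 in E2f7 and at -11 to -4 in E2f3. E2f3 and E2f7 carried the same 8 letters and Tfdp1 a variant of them. In E2f2 the word lay at 39 to 46, past the start site. A matching word is a description of these letters and not a binding site.

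Among all members the DP gene Tfdp1 had the highest level in 5 of the 6 groups, and E2f4 in the remaining one, DM 48h DMSO. In GM DMSO the order ran from Tfdp1 at 127 ± 3.31 FPKM (SD, n = 2) through E2f4 at 56.0 ± 6.69, E2f8 at 40.5 ± 1.27, E2f1 at 25.6 ± 0.75 and E2f7 at 20.5 ± 1.18. Then came E2f6 at 16.2 ± 1.08, E2f5 at 15.1 ± 1.38, E2f3 at 12.9 ± 1.37, E2f2 at 8.10 ± 2.17 and Tfdp2 at 5.69 ± 0.495. E2f6 and E2f5 were the only neighbours in that order whose libraries overlapped. At DM 48h with DMSO the order had changed: E2f2 stood at 36.4 ± 0.106 FPKM after E2f4 and Tfdp1, E2f1 near the end at 7.31 ± 0.311 and E2f7 last at 4.03 ± 0.064, with no overlap between neighbours.

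**Figure D1:**
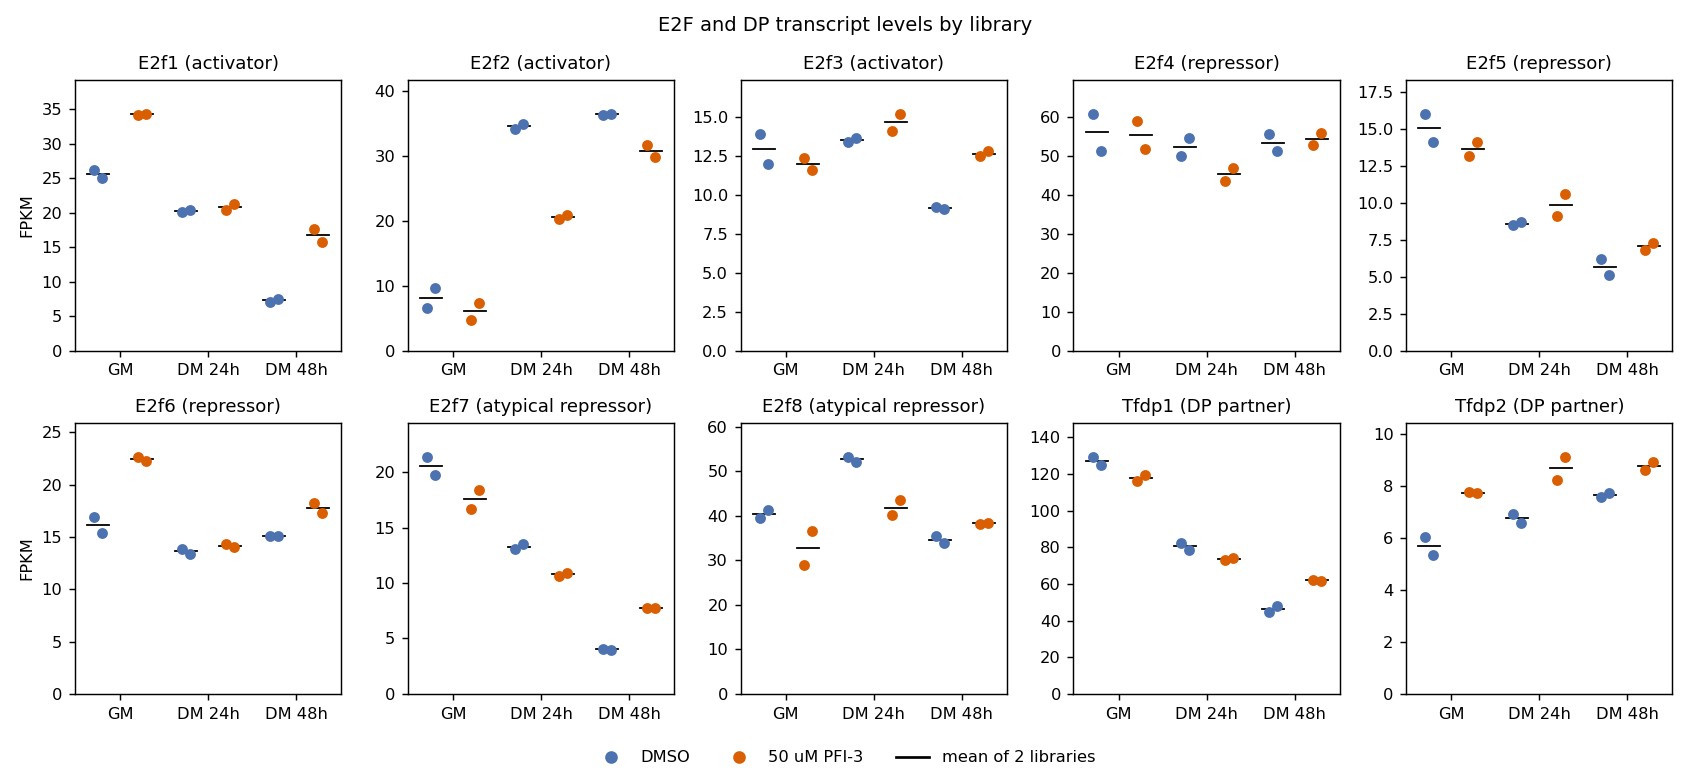
FPKM of the 10 members in each of the 12 libraries, by stage on the horizontal axis, with DMSO in blue, PFI-3 in orange and the mean of 2 libraries as a line. E2f1 and E2f7 fall to their lowest points in the 2 DM 48h DMSO libraries, E2f2 rises from GM to DM 24h, and E2f4 stays between 43.5 and 60.75 FPKM.

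In vehicle-treated cells, 7 of the 10 members were called between GM and DM 24h, with 2 higher and 5 lower, beside 60.6% of all genes tested. Between DM 24h and DM 48h, 7 members were called, with 1 higher (Tfdp2, a call that several alternatives ended) and 6 lower, beside 48.1% of all genes. With PFI-3 the same steps called 9 members (3 higher, 6 lower), beside 60.3% of all genes, and 6 members (2 higher, 4 lower), beside 27.3%. That count of 6 fell to 3 without DM 24h PFI-3 A or DM 48h PFI-3 B, to 2 without DM 48h PFI-3 A and to 1 without DM 24h PFI-3 B. For PFI-3 against DMSO within a stage, 5 members were called in GM (3 higher, 2 lower), beside 11.6% of all genes, 4 at DM 24h (1 higher, 3 lower), beside 23.6%, and 4 at DM 48h (all higher), beside 27.4%. The PFI-3 effect changed between DM 24h and DM 48h for 3 members, all upward, beside 12.1% of all genes. Between GM and DM 24h it changed for none of the 10 in edgeR's test, beside 3.37% of all genes. At an unadjusted p under 0.05 that last count was 2 (E2f1 and E2f6), and limma on log2(FPKM + 1) called 1 (E2f6). Among called genes the share that was higher with PFI-3 was 47%, 51.7% and 48.9% at the 3 stages, but 75.3%, 62% and 65.3% in limma on log2(FPKM + 1). For the change from GM to DM 24h it was 52.7% against 32.9%. No called effect of a member changed direction between these scalings, but effects near 0 did: E2f1 at DM 24h went from -0.0035 to 0.04, E2f4 at DM 48h from -0.06 to 0.03, and E2f3 in vehicle to DM 24h from -0.01 to 0.06. The 3 stages share no library, whereas the stage comparisons and the PFI-3 comparisons share their DMSO libraries, so their values are given side by side only.

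E2f1, the founding activator, was lowered during differentiation, and at DM 48h its level with PFI-3 was more than 2-fold that of vehicle. With DMSO its libraries A and B read 26.1 and 25.1 FPKM in GM, 20.0 and 20.4 at DM 24h, then 7.09 and 7.53 at DM 48h. With PFI-3 they read 34.1 and 34.4 in GM, 20.4 and 21.3 at DM 24h, then 17.7 and 15.7 at DM 48h. The PFI-3 libraries lay well above the DMSO libraries in GM and at DM 48h, while at DM 24h the treatments were barely apart in FPKM and overlapped in counts per library total. In vehicle the log2 fold change was -0.39 (SE 0.08, adjusted p = 0.00103) to DM 24h and -1.41 (SE 0.09, adjusted p = 9.02e-08) from DM 24h to DM 48h. The PFI-3 effect was 1.10 at DM 48h (SE 0.09, adjusted p = 4.37e-06), a 2.15-fold difference with a 95% interval of 1.88 to 2.46. At DM 24h no difference passed the test (0.998-fold, 95% interval 0.883 to 1.13, adjusted p = 0.98). The difference between these effects was 1.11 (SE 0.12, adjusted p = 0.000116). In GM, E2f1 was higher with PFI-3 by 0.32 (SE 0.08, adjusted p = 0.0229), a call that ended without GM DMSO B (adjusted p = 0.0516) or without GM PFI-3 B (0.0517), and in DESeq2 (0.0608). Its expected counts were fractional in 9 of the 12 libraries, those of the other members in none.

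E2f2, also an activator, ran the other way: it rose on differentiation and was lower with PFI-3 at DM 24h. The DMSO libraries read 6.56 and 9.63 FPKM in GM, 34.1 and 35.0 at DM 24h, then 36.4 and 36.5 at DM 48h. The PFI-3 libraries read 4.78 and 7.30, then 20.2 and 21.0, then 31.6 and 29.9. The treatments overlapped in GM and stood apart at both DM stages, with PFI-3 lower. The rise to DM 24h in vehicle was 1.96 on the log2 scale (SE 0.17, adjusted p = 9.49e-07), or 3.89-fold with a 95% interval of 3.03 to 4.99. With PFI-3 the rise to DM 24h was 1.69 (SE 0.17, adjusted p = 4.95e-06), and a further 0.64 (SE 0.16, adjusted p = 0.00921) followed to DM 48h. That second call ended without DM 24h PFI-3 A (adjusted p = 0.0731), DM 24h PFI-3 B (0.0578) or DM 48h PFI-3 A (0.078), and in limma on log2(FPKM + 0.1) (0.0516). The PFI-3 effect at DM 24h was -0.80 (SE 0.16, adjusted p = 0.00351), or 0.575-fold, and the largest adjusted p under any alternative was 0.0425. The DM 48h effect of -0.32 (SE 0.15) missed the threshold (adjusted p = 0.15). It passed when the 4 more variable GM libraries were left out (adjusted p = 3.4e-07), a fit chosen after seeing the data. All later results without the 4 GM libraries come from that same fit. The GM difference of -0.52 (SE 0.18) did not pass (adjusted p = 0.0767), and passed in DESeq2 (adjusted p = 0.02) and without GM DMSO A (0.0143) or GM PFI-3 B (0.00488).

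E2f3, the remaining activator, fell between DM 24h and DM 48h in vehicle and was higher with PFI-3 at DM 48h. Its DMSO libraries read 13.9 and 12.0 FPKM in GM, 13.4 and 13.6 at DM 24h, then 9.20 and 9.06 at DM 48h, while its PFI-3 libraries read 12.4 and 11.6, 14.1 and 15.2, and 12.5 and 12.8. Only at DM 48h did both PFI-3 libraries lie more than 3 FPKM above both DMSO libraries. In vehicle E2f3 fell by 0.57 on the log2 scale between DM 24h and DM 48h (SE 0.09, adjusted p = 0.000354). With PFI-3 it was higher at DM 48h by 0.43 (SE 0.10, adjusted p = 0.0055), or 1.35-fold with a 95% interval of 1.17 to 1.56. That call missed the threshold without DM 48h DMSO B (adjusted p = 0.051). The change of the PFI-3 effect from DM 24h to DM 48h did not pass (0.35, adjusted p = 0.108), and passed without the 4 GM libraries (0.00187). A noncoding gene on the opposite strand overlaps E2f3 and is in no table, and the strand setting of the counting is not given in the sources used here.

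**Figure D2:**
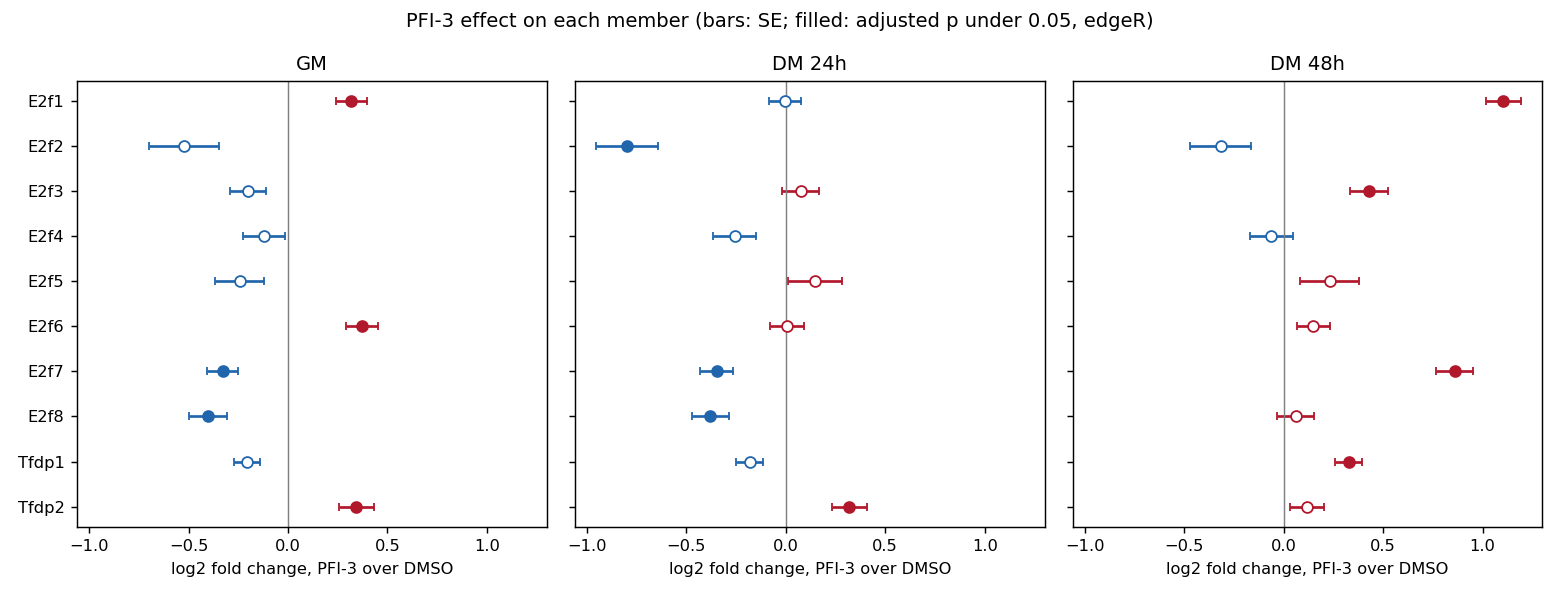
Log2 fold change of PFI-3 over DMSO (horizontal axis) for each of the 10 members in GM, DM 24h and DM 48h, with bars of 1 SE and filled points where edgeR's adjusted p is under 0.05. At DM 48h the filled points are E2f1, E2f3, E2f7 and Tfdp1, all to the right of 0, while at DM 24h E2f2, E2f7 and E2f8 are filled to the left.

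E2f4, the most abundant E2F in 5 of the 6 groups and a repressor that works with p107 and p130, passed in no PFI-3 comparison. Its 12 libraries ran from 43.5 to 60.75 FPKM. The DMSO pairs read 60.8 and 51.3, 49.8 and 54.6, and 55.5 and 51.1 in stage order, and the PFI-3 pairs 59.0 and 51.6, 43.5 and 46.9, and 52.8 and 55.8. The treatments overlapped in GM and at DM 48h but not at DM 24h. The PFI-3 fold had a 95% interval of 0.783 to 1.08 in proliferating cells, 0.712 to 0.983 at the 24 h stage and 0.816 to 1.13 at the 48 h stage. At DM 24h the difference of -0.26 (SE 0.11, adjusted p = 0.102) passed without the 4 GM libraries (adjusted p = 0.000268). Across stages it was called once, lower by 0.29 from GM to DM 24h with PFI-3 (adjusted p = 0.032), and not without GM PFI-3 A (adjusted p = 0.186), DM 24h PFI-3 A (0.173) or DM 24h PFI-3 B (0.0586).

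E2f5, the other pocket-protein partner among the repressors, fell through both steps of differentiation. Its DMSO libraries read 16.0 and 14.1 FPKM in GM, 8.48 and 8.73 at DM 24h, then 6.19 and 5.14 at DM 48h. Its PFI-3 libraries read 13.2 and 14.1, then 9.10 and 10.6, then 6.84 and 7.30. The stages did not overlap within either treatment. The vehicle changes were -0.86 (SE 0.13, adjusted p = 0.000118) and -0.54 (SE 0.14, adjusted p = 0.00837), the second of which missed the threshold without DM 24h DMSO B (0.0523) or DM 48h DMSO B (0.092). No PFI-3 difference passed at any stage, and the 95% interval of the fold at DM 48h was 0.94 to 1.47. E2f5 overlaps 1810022K09Rik, a protein-coding gene on the opposite strand that the tables also list, so reads of the pair may not be told apart where counting ignored strand.

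E2f6, the repressor that joins Polycomb proteins, differed between treatments in proliferating cells. With DMSO its libraries read 17.0 and 15.4 FPKM in GM, 13.9 and 13.4 at DM 24h, then 15.1 in both at DM 48h. With PFI-3 they read 22.7 and 22.3, then 14.3 and 14.0, then 18.2 and 17.3. The GM PFI-3 libraries were the highest of all 12. In GM the PFI-3 effect was 0.37 (SE 0.08, adjusted p = 0.0144), or 1.30-fold with a 95% interval of 1.15 to 1.46. It passed in each fit that left out 1 library, but not in the fit of the 4 GM libraries alone (adjusted p = 0.31) or in limma voom with a weight per stage (0.124). The change of the effect to DM 24h, -0.37 (SE 0.12), did not pass in edgeR's test (adjusted p = 0.119). At DM 48h the difference of 0.15 (SE 0.08) did not pass on counts (adjusted p = 0.217), and passed in limma on log2(FPKM + 1) (0.22, adjusted p = 0.0292).

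The genes that E2F6 is known to silence in somatic cells remained near 0. Of the 8 germline genes listed as its targets, 4 were in the tables (Stag3, Smc1b, Tuba3b and Taf7l), none passed the low-count filter, and none exceeded 0.17 FPKM in any library. Of its 8 Polycomb partners, none passed in GM, 1 was higher with PFI-3 at DM 24h (Rnf2, a ubiquitin ligase, 0.32, adjusted p = 0.0257), and 3 at DM 48h. Those 3 were the histone reader L3mbtl2 (0.49, adjusted p = 0.000517), the PRC1 subunit Rybp (0.49, adjusted p = 0.000336) and the heterochromatin protein gene Cbx3 (0.35, adjusted p = 0.00259). The median over the 8 partners was 0.04, 0.02 and 0.27 in stage order, against -0.01, -0.00 and 0.00 over all genes tested. Of all genes tested, 11.6%, 23.6% and 27.4% were called at these stages.

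E2f7, an atypical repressor known to limit E2F1 and other E2F targets, was lower with PFI-3 at DM 24h and higher with PFI-3 at DM 48h. Its DMSO libraries read 21.4 and 19.7 FPKM in GM, 13.1 and 13.5 at DM 24h, then 4.07 and 3.98 at DM 48h. Its PFI-3 libraries read 16.7 and 18.4, then 10.7 and 10.9, then 7.77 and 7.74. The treatments did not overlap at any stage, and the order of the 2 treatments was opposite at DM 48h to the order at the earlier stages. The vehicle changes were -0.68 (SE 0.08, adjusted p = 1.49e-05) to DM 24h and -1.66 (SE 0.09, adjusted p = 2.28e-08) to DM 48h, and the step from DM 24h to DM 48h with PFI-3 was -0.45 (SE 0.08, adjusted p = 0.00189). At DM 48h the PFI-3 effect was 0.86 (SE 0.09, adjusted p = 3.24e-05), or 1.81-fold with a 95% interval of 1.58 to 2.08. Its change from DM 24h was 1.21 (SE 0.12, adjusted p = 7.9e-05).

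At the earlier stages the E2f7 effects were -0.33 for GM (SE 0.08, adjusted p = 0.0211), then -0.35 for DM 24h (SE 0.08, adjusted p = 0.00967). The GM call ended without GM DMSO A (adjusted p = 0.0911) or GM PFI-3 A (0.0845). The DM 24h call ended without DM 24h PFI-3 A (0.0786), DM 24h DMSO B (0.0827) or DM 24h PFI-3 B (0.0523), and held without the 4 GM libraries. A noncoding gene on the opposite strand, which is in no table, also overlaps E2f7.

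E2f8, the second atypical repressor and the more abundant of the pair in all 12 libraries, rose and then fell in vehicle. Its DMSO libraries read 39.6 and 41.4 FPKM in GM, 53.2 and 52.1 at DM 24h, then 35.4 and 33.9 at DM 48h. Its PFI-3 libraries read 28.9 and 36.6, then 40.1 and 43.5, then 38.2 and 38.4. PFI-3 libraries were the lower ones in GM and at DM 24h and the higher ones at DM 48h, without overlap. From GM it rose by 0.33 to DM 24h (SE 0.09, adjusted p = 0.00935) and then fell by 0.54 (SE 0.09, adjusted p = 0.000528). The rise missed the threshold without DM 24h DMSO A (adjusted p = 0.0515). PFI-3 shifted E2f8 by -0.40 in proliferating cells (SE 0.10, adjusted p = 0.0199), then by -0.38 after 24 h of differentiation (SE 0.09, adjusted p = 0.0128). After 48 h the difference was 0.06 (SE 0.10, adjusted p = 0.691), with a 95% interval of the fold of 0.902 to 1.20.

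The GM difference of E2f8 lost its call without GM PFI-3 A (adjusted p = 0.0628). The DM 24h difference lost it without DM 24h DMSO A (0.0817), DM 24h PFI-3 A (0.122) or DM 24h DMSO B (0.0692). The change of the effect from DM 24h to DM 48h was 0.44 (SE 0.13), with adjusted p = 0.0531 over all 12 libraries and 1.36e-06 without the 4 GM libraries. E2f8 too is overlapped by an opposite-strand noncoding gene that is in no table.

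Tfdp1, which encodes the main DP partner of the E2Fs, fell at both steps and was higher with PFI-3 at DM 48h. Its DMSO libraries read 129 and 125 FPKM in GM, 82.6 and 78.3 at DM 24h, then 44.9 and 48.2 at DM 48h. Its PFI-3 libraries read 116 and 120, then 73.1 and 74.1, then 62.4 and 61.7. Both PFI-3 libraries were below both DMSO libraries in GM and at DM 24h, and above them at DM 48h. The vehicle changes were -0.71 (SE 0.07, adjusted p = 2.43e-06) and -0.73 (SE 0.07, adjusted p = 2.95e-06). The PFI-3 effect at DM 48h was 0.33 (SE 0.07, adjusted p = 0.00377), or 1.26-fold with a 95% interval of 1.13 to 1.39, and it missed the threshold without DM 48h DMSO A (adjusted p = 0.055). The earlier differences, -0.21 for GM (adjusted p = 0.0643) and -0.18 for DM 24h (0.0684), did not pass. Without the 4 GM libraries the DM 24h difference did (adjusted p = 0.00103). From DM 24h to DM 48h the effect changed by 0.51 (SE 0.10, adjusted p = 0.00455).

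Tfdp2, the gene of the less abundant DP partner, was higher with PFI-3 in all 3 stages and passed the test in GM and at DM 24h. Its DMSO libraries read 6.04 and 5.34 FPKM, then 6.95 and 6.60, then 7.58 and 7.75, and its PFI-3 libraries 7.77 and 7.75, then 8.24 and 9.14, then 8.63 and 8.95. In vehicle Tfdp2 rose by 0.24 from DM 24h to DM 48h (SE 0.09, adjusted p = 0.0417). That call ended in DESeq2 (0.0829), with no low-count filter (0.0561) and in each limma fit on FPKM (0.147 to 0.158). Leaving out any single DM DMSO library ended it too. The treatments did not overlap at any stage. PFI-3 raised Tfdp2 by 0.34 in proliferating cells (SE 0.09, adjusted p = 0.0285), then by 0.32 after 24 h of differentiation (SE 0.09, adjusted p = 0.0212). The difference of 0.12 after 48 h did not pass (SE 0.09, adjusted p = 0.36). The GM call ended without either GM B library (DMSO B, adjusted p = 0.0881; PFI-3 B, 0.0645), without GM PFI-3 A (0.0581) and without any 1 of the 4 DM DMSO libraries (0.0508 to 0.0536). The DM 24h call ended without DM 24h DMSO A (0.0922), DMSO B (0.124) or PFI-3 B (0.172).

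Without the replicate letter as a block, the GM calls of all 5 members rest on a spread shared with the DM libraries. When the 4 GM libraries were fitted alone, the adjusted p-values of E2f1, E2f6, E2f7, E2f8 and Tfdp2 ran from 0.31 to 0.376 in edgeR. With limma voom and a weight per stage they ran from 0.0617 to 0.206. The log2 fold changes themselves kept their direction in both. With the letter as a block in edgeR's fit of the GM libraries alone, E2f6 and E2f8 kept their calls. E2f1 (adjusted p = 0.0568), E2f7 (0.1) and Tfdp2 (0.0617) missed the threshold in that fit.

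Summed by class, the activators (E2f1, E2f2 and E2f3) came nearest to the pocket-protein and Polycomb repressors (E2f4, E2f5 and E2f6) at DM 24h. The ratio of summed FPKM was 0.497 and 0.577 in the GM DMSO libraries, 0.936 and 0.899 at DM 24h, then 0.685 and 0.744 at DM 48h. With PFI-3 it was 0.541 and 0.605, then 0.818 and 0.804, then 0.794 and 0.726. The PFI-3 libraries lay below the DMSO libraries at DM 24h and overlapped them in GM and at DM 48h. These ratios are descriptions with no test.

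Within the activators, E2f1 and E2f2 changed places. In library A of the DMSO groups E2f1 made up 56.1% of the activators' summed FPKM in GM, 29.7% at DM 24h, then 13.5% at DM 48h, while E2f2 went from 14.1% to 50.5% and 69.1%. In library A of the PFI-3 groups E2f1 held 66.5%, 37.3% and 28.6%, and E2f2 9.3%, 37.0% and 51.2%. The activators together summed to 52.9 ± 0.318 FPKM in DM 48h DMSO, against 60.1 ± 2.44 in DM 48h PFI-3 (SD, n = 2).

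The atypical repressors, E2f7 and E2f8, exceeded the activators in both GM DMSO libraries, in 1 GM PFI-3 library and in no DM library. Their summed FPKM over that of the activators was 1.31 in both GM DMSO libraries, 0.982 and 0.951 at DM 24h, then 0.750 and 0.713 at DM 48h. With PFI-3 it was 0.888 and 1.03 in GM, 0.928 and 0.947 at DM 24h, then 0.744 and 0.791 at DM 48h. Both PFI-3 libraries lay under the DMSO libraries in GM and, by a smaller margin, at DM 24h, and the treatments overlapped at DM 48h.

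**Figure D3:**
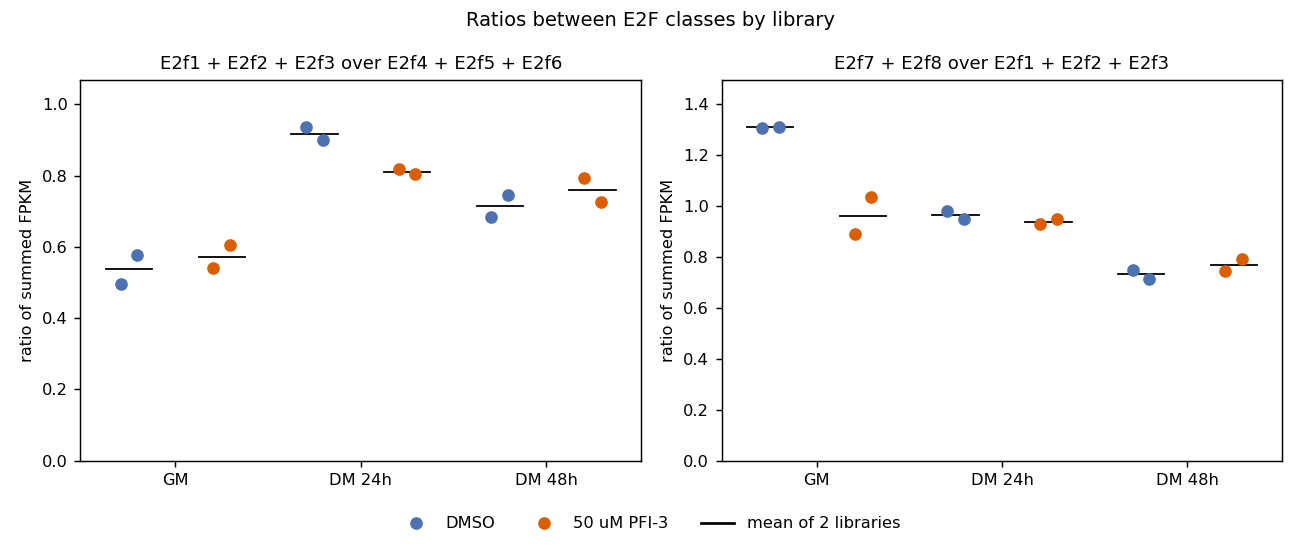
Ratios of summed FPKM between E2F classes in each library, by stage, with activators over E2f4, E2f5 and E2f6 on the left and E2f7 and E2f8 over the activators on the right. The left ratio peaks in the DM 24h DMSO libraries at 0.936 and 0.899, and the right ratio is highest in the GM DMSO libraries at 1.31.

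The pocket proteins, which bind and restrain E2Fs, were unlike one another. Rb1, the retinoblastoma gene, read 6.53 and 8.01 FPKM in GM DMSO, 35.5 and 36.7 at DM 24h, then 52.9 and 51.9 at DM 48h. With PFI-3 Rb1 read 8.73 and 8.46, then 22.9 and 23.1, then 44.9 and 47.3. Its rise to DM 24h in vehicle was 2.26 (SE 0.08, adjusted p = 2.93e-10), and it was lower with PFI-3, by -0.70 at DM 24h (adjusted p = 3.49e-05) and by -0.27 at DM 48h (0.0121).

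Rbl1, which encodes p107 and is itself an E2F target, read 4.47 and 5.00 FPKM at DM 48h with DMSO and 10.6 and 10.9 with PFI-3, an effect of 1.09 (SE 0.10, adjusted p = 9.92e-06). It was also higher with PFI-3 in GM (0.31, adjusted p = 0.0423) and did not pass at DM 24h (-0.09, adjusted p = 0.51). The GM call did not hold in DESeq2, in any limma fit or in the fits of only the GM libraries. It also ended without GM DMSO A, without GM PFI-3 B and without any single DM library. Rbl2, which encodes p130, rose in vehicle by 0.47 (adjusted p = 0.00155) and 0.44 (adjusted p = 0.00258) in the 2 steps. Its PFI-3 differences of 0.15, 0.19 and -0.18 did not pass.

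The MuvB complex represses cell cycle genes with p130 and E2F4, or activates them with MYBL2 and FOXM1. Of 7 measured genes of MuvB and its partners, none were higher and 2 lower with PFI-3 in GM (Mybl2 and the histone chaperone gene Rbbp4), 2 were lower at DM 24h (Mybl2 and Foxm1), and 3 were higher at DM 48h (Mybl2, Foxm1 and Lin54). These counts stand beside 11.6%, 23.6% and 27.4% of all genes tested called in stage order. Mybl2 read 38.7 and 28.5 FPKM in GM DMSO and 25.6 and 25.1 with PFI-3, then 13.1 and 12.7 against 8.67 and 8.79, then 2.87 and 2.61 against 6.59 and 6.42. Its PFI-3 effects were -0.51 (adjusted p = 0.0232), -0.61 (adjusted p = 0.0082) and 1.16 (adjusted p = 0.00035), with the same order of signs as E2f7. The GM call of Mybl2 ended without GM DMSO A or GM PFI-3 A and in each limma fit on FPKM. It also ended in the fit of the GM libraries alone without the block. The DM 24h call ended without either DM 24h A library. For Mybl2 the change between DM 24h and DM 48h was 1.77 (SE 0.22, adjusted p = 0.000291).

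Among 8 G1 cyclins and kinases, which free E2Fs by phosphorylating pocket proteins, 1 was higher and 1 lower with PFI-3 in GM, 2 and 2 at DM 24h, then 6 and 2 at DM 48h. Over all genes tested, 11.6%, 23.6% and 27.4% were called in stage order. Ccnd2 (cyclin D2) was the largest rise at each stage: in stage order 0.84 (adjusted p = 0.00217), 1.67 (1.29e-05) and 2.26 (2.13e-06). It read 1.16 and 1.30 FPKM at DM 48h with DMSO and 5.98 and 6.55 with PFI-3. The largest falls were Cdk4 in GM (-0.43, adjusted p = 0.00118), Cdk2 at DM 24h (-0.51, adjusted p = 0.000844) and Ccnd3, the cyclin D gene that is high in differentiating muscle, at DM 48h (-0.55, adjusted p = 0.000176). Ccne1, an E2F target that drives entry into S phase, was higher by 0.42 at DM 24h (adjusted p = 0.0163), then by 1.61 at DM 48h (4.44e-06). The DM 24h call of Ccne1 ended when any single DM 24h library was left out.

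Of the 7 CDK inhibitor genes listed, 5 were in the tables, and Cdkn2a and Cdkn2b were in none. None passed with PFI-3 in GM, where edgeR gave an unadjusted p under 0.05 for Cdkn1a (-0.31, adjusted p = 0.0957) and Cdkn1b (0.31, adjusted p = 0.0993). At DM 24h Cdkn1b was higher (0.44, adjusted p = 0.0122), and Cdkn1c and Cdkn1a were lower. At DM 48h Cdkn2c was higher (0.70, adjusted p = 0.00517) and the same pair was lower. Cdkn1c, which encodes p57 and rises in differentiating muscle, read 156 and 162 FPKM at DM 24h with DMSO and 46.5 and 45.5 with PFI-3, a difference of -1.84 (SE 0.12, adjusted p = 9.99e-07). At DM 48h the difference was -1.59 (SE 0.11, adjusted p = 1.56e-06). Cdkn1a, which encodes p21, fell by 0.67 (adjusted p = 0.00115) and 0.54 (adjusted p = 0.00313) at the 2 stages.

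The 30 E2F target genes, for replication, nucleotide supply and repair, fell during differentiation and were all higher with PFI-3 at DM 48h. In vehicle 27 of 30 were lower at DM 24h than in GM (median -0.81, against 0.02 over all genes tested), and 30 of 30 were lower at DM 48h than at DM 24h (median -1.71, against 0.00). Of all genes tested, 30% and 23.9% were called lower in these steps, and 28.2% and 14.2% with PFI-3. With PFI-3 the same steps lowered 30 (median -0.77) and 26 (median -0.45), the latter 17 without DM 48h PFI-3 B and 18 without either DM 24h PFI-3 library. For PFI-3 against DMSO, 1 was higher (Rbl1) and 1 lower (Mybl2) in GM, with a median of -0.04 that turned to 0.06 in limma on log2(FPKM + 1). The Rbl1 call ended without GM DMSO A, GM PFI-3 B or any single DM library. The GM count was 8 lower without GM DMSO B, 6 lower without GM PFI-3 B, and none lower without either GM A library, where the median was 0.01 (without DMSO A) and -0.02 (without PFI-3 A). At DM 24h 1 was higher (Ccne1) and 4 lower (Mybl2, Pola1, Rrm1 and Tyms), with a median of -0.09. The Ccne1 call ended when any single DM 24h library was left out. At DM 48h 30 of 30 were higher, with a median of 1.09 and a range of 0.47 to 1.76, against a median of 0.00 over all genes. Among all genes tested, 5.46%, 12.2% and 13.4% were called higher with PFI-3 in stage order, and 6.15%, 11.4% and 14% lower. The list was chosen with earlier results of these data known, and it includes Ccne1, Ccne2, Rbl1 and Mybl2, which other lists hold too.

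The largest of these rises at DM 48h was that of Cdc6, a replication licensing factor, which read 1.36 and 1.26 FPKM with DMSO and 4.75 and 4.69 with PFI-3 (1.76, SE 0.20, adjusted p = 4.52e-05). In GM Cdc6 read 20.9 and 16.6 FPKM with DMSO, so the PFI-3 level at DM 48h remained below that of proliferating cells. The change of the PFI-3 effect from DM 24h to DM 48h passed for 29 of the 30 targets, all upward, with a median of 1.24. It passed upward for 7.12% of all genes tested. Without the 4 GM libraries 30 of 30 passed, both for this change and for the effect at DM 48h, and over all 24 alternatives at least 27 passed for each. The DM 24h count moved too: 1 lower without DM 24h DMSO B or DM 24h PFI-3 B, none without either DM 24h A library, and 8 lower without the 4 GM libraries.

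**Figure D4:**
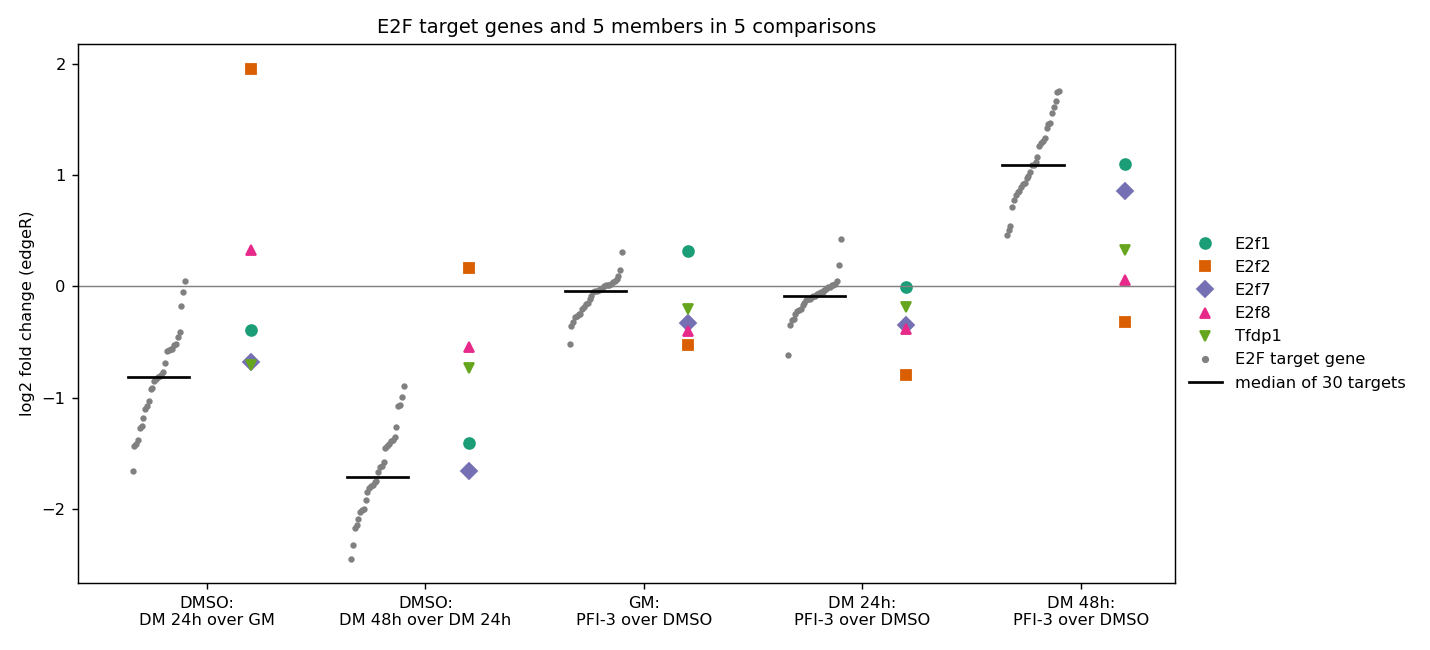
Log2 fold changes (vertical axis, edgeR) of the 30 E2F target genes as grey points with their median as a line, beside E2f1, E2f2, E2f7, E2f8 and Tfdp1, in 5 comparisons. In the DM 48h comparison of PFI-3 with DMSO the 30 targets lie between 0.47 and 1.76 and E2f1 and E2f7 lie within their range, while E2f2 lies below 0.

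The 3 proliferation markers Mki67, Top2a and Ccnb1 were, like the targets, all higher with PFI-3 at DM 48h, by 0.85, 0.92 and 0.99. In vehicle they did not follow the targets from GM to DM 24h. There 1 was called higher and 1 lower, beside 60.6% of all genes tested, with a median of 0.03, against -0.81 for the targets. With PFI-3 against DMSO, some were called in the other direction at the earlier DM stage. At DM 24h Mki67 (-0.50, adjusted p = 0.00117) and Top2a (-0.27, adjusted p = 0.00882) were lower. Muscle markers moved the other way at DM 48h: the summed FPKM of Myog, Myh3, Ckm and Acta1 was 6862.65 and 6784.23 with DMSO and 4919.88 and 4868.79 with PFI-3. At DM 24h it was 1103.41 and 1091.62 against 499.0 and 496.5. The part of a changed mix of dividing and differentiating cells in the E2F results was not tested.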

How the data were processed

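RNA from 12 C2C12 libraries was analysed from 1 deposited table per library. Each table gives an expected count and an FPKM value per gene, per the file headers, with a transcript length. The authors' expected counts and the deposited FPKM values were made before deposit; the submitters' processing notes name HISAT, StringTie, Cufflinks, Bowtie, RSEM and DESeq2 and the build mm10, without roles. A gene missing from a table was taken as 0, a reading that the headers do not state: where only 1 library of a pair lists a gene, its median count was 1.

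Expected counts were rounded and tested with edgeR 4.0.16 (quasi-likelihood, TMM scaling, R 4.3.3) in 1 model of 6 groups over all 12 libraries, two-sided, with Benjamini-Hochberg adjustment over the 12545 of 16288 genes that passed edgeR's count filter. Sharing 1 spread was chosen because 2 libraries a group leave little to estimate it from. The changes of the PFI-3 effect are interaction contrasts. Intervals are 95% intervals from the t distribution of that test. Totals were of about the same size in each library, and no floor on counts was applied beyond edgeR's count filter. The code was tested on simulated data.

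Alternatives were DESeq2 1.42.0, RLE scaling, other filters, limma 3.58.1 on log2(FPKM + 1) and log2(FPKM + 0.1), limma voom with a weight per stage, a fit of the libraries compared, the replicate letter as a block, and leaving out each library. A fit without the 4 GM libraries was not planned and was added after seeing the data. The series calls A and B biological duplicates and does not say what a letter shares across groups, so p-values measure the spread between these libraries.

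Named were all 10 members, the 3 pocket proteins, from each gene list the called gene with the largest rise and fall per PFI-3 comparison, and the 3 genes most alike each member. Where 5 or fewer genes of a list were called, the others were named after their values were seen, as were Ccne1 at DM 48h, Cdkn1a and Cdkn1b in GM, and the proliferation markers. The members and lists were chosen with earlier results of these data known. Python 3.11.15 with pandas 2.3.3 and matplotlib 3.10.9 drew the figures.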

Additional observations from a re-analysis of the deposited data

Results flagged for a closer look

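For 3 members the PFI-3 effect differed between DM 24h and DM 48h by edgeR's interaction test. The difference of the log2 effects was 1.11 for E2f1 (SE 0.12, adjusted p = 0.000116), 1.21 for E2f7 (SE 0.12, adjusted p = 7.9e-05) and 0.51 for Tfdp1 (SE 0.10, adjusted p = 0.00455). In each case both PFI-3 libraries lay above both DMSO libraries at DM 48h. At DM 24h both PFI-3 libraries lay below both DMSO libraries for E2f7 and Tfdp1, while for E2f1 the treatments overlapped in counts per library total.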

How the results depend on the processing

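No called member effect changed sign under any alternative run. Of the uncalled ones 14 did, in 45 values, all with an adjusted p of at least 0.152. At DM 24h E2f1 went from -0.0035 to 0.044 (pseudocount 1, with or without the filter) and 0.046 (pseudocount 0.1) in limma on FPKM and to 0.0012 and 0.0013 in fits of only the libraries compared without and with the replicate block, and E2f6 from 0.0062 to -0.023 with RLE scaling and in DESeq2. In limma on FPKM, E2f4 at DM 48h went from -0.062 to 0.026 and 0.027, E2f3 in vehicle to DM 24h from -0.012 to 0.064 and 0.069, and the change from GM to DM 24h from 0.024 to -0.019 and -0.018 for E2f8 and from 0.024 to -0.020 and -0.021 for Tfdp1. With 1 library left out, values ran from -0.28 to 0.050 for E2f4 in GM, from -0.035 to 0.028 and -0.011 to 0.029 for E2f1 and E2f6 at DM 24h, from -0.16 to 0.15 and -0.31 to 0.013 for E2f3 and E2f4 in vehicle to DM 24h, and from -0.036 to 0.11 for Tfdp2 with PFI-3 to DM 48h. For the change from GM to DM 24h they ran from -0.56 to 0.086 (E2f2), -0.30 to 0.018 (E2f4), -0.12 to 0.076 (E2f7), -0.14 to 0.21 (E2f8), -0.043 to 0.090 (Tfdp1) and -0.15 to 0.097 (Tfdp2), and for that from DM 24h to DM 48h from -0.049 to 0.22 (E2f5). Members called in GM numbered 5, against 3 in each limma fit on FPKM and 0 in the fit of the GM libraries alone and in limma voom with a weight per stage. Genes called in GM numbered 1456, against 38 in that fit and 381 with limma voom. Fits of only the libraries compared, limma voom and the fit without the 4 GM libraries (chosen after seeing the data) called 5603, 5422 and 5558 genes at DM 24h against 2966, 5644, 5458 and 5841 at DM 48h against 3438, and 5630, 5634 and 5854 for PFI-3 from DM 24h to DM 48h against 3429. For the change from DM 24h to DM 48h they called 4170, 3757 and 4170 genes against 1517, and 6 members each against 3. For the change from GM to DM 24h the fit of only the libraries compared called 92 genes against 423, and limma on log2(FPKM + 1), with or without the filter, 1 member against 0.

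With the replicate block over all 12 libraries the counts of genes called were 1489, 3040 and 3452 for PFI-3 at the 3 stages, and 5, 4 and 4 members. The block ended the Tfdp2 call in vehicle from DM 24h to DM 48h (adjusted p = 0.0501) and added E2f8 to the change from DM 24h to DM 48h (0.0487). Same-letter deviations of the DMSO and PFI-3 libraries correlated at 0.509 in GM and at 0.036 and 0.052 in the DM stages. Libraries of the same letter thus deviated together in GM, where the fits without the block leave this out. In the DM stages the letter was not shown to pair the libraries. What the letter shares in GM was not tested. With the replicate block and only the libraries compared, 3 members (E2f2 with adjusted p = 0.0175, E2f6 and E2f8) and 922 genes were called in GM, 5715 genes at DM 24h, 6077 at DM 48h and 6047 for PFI-3 from DM 24h to DM 48h. That block within each stage gave 803 genes for the change from GM to DM 24h, and 7 members and 4344 genes for the change from DM 24h to DM 48h.

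Leaving out each library gave 2 to 5 members and 1020 to 2742 genes in GM, 1 to 6 and 1323 to 3948 at DM 24h, and 3 to 5 and 1961 to 4323 at DM 48h. For PFI-3 from DM 24h to DM 48h it gave 1 to 8 members and 1956 to 4328 genes, for the change from GM to DM 24h 0 to 1 and 89 to 1002, and for the change from DM 24h to DM 48h 3 to 5 and 794 to 2421. From counts per kilobase the ratio of activators to repressors was 0.826 at DM 24h with PFI-3, and that of atypical repressors to activators 1.31 in GM DMSO. Chi-square over its degrees of freedom between the libraries of a pair, which is 1 for counting error alone, was 18.6 and 13.8 in GM and 1.74 to 2.11 in the DM pairs. Counting error was thus a larger share of the spread in the DM pairs than in the GM pairs.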

Other observations

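The genes whose levels ran most like a member's over the 12 libraries were found by Pearson's r of log2(CPM + 1) among the 10367 genes that averaged 5 CPM or more. These r values describe libraries that share their stage and treatment and carry no test. For E2f7 they were Prr11 (0.998), Cdca8 (0.997) and Kif23 (0.996), of which the last 2 encode proteins of chromosome segregation and cytokinesis. For E2f1 they were Wdr76 (0.99), Mis12 (0.99) and Topbp1 (0.989), and for Tfdp1 Ranbp1 (0.996), Ipo11 (0.995) and Uba2 (0.994). E2f2 ran with Notch1 (0.992), C1qtnf3 (0.991) and Agap1 (0.991), and E2f5 with Nus1 (0.992), Sco2 (0.99) and Sf3b4 (0.987). The nearest genes were less close for E2f3 (Xrcc1, 0.951), E2f4 (Szrd1, 0.941), E2f6 (Mfhas1, 0.972), E2f8 (Surf4, 0.93) and Tfdp2 (Becn1, 0.942).

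Between members, by the same measure, r was 0.966 for E2f7 with Tfdp1, 0.962 for E2f5 with Tfdp1 and 0.94 for E2f1 with E2f7. It was -0.89 for E2f2 with E2f5 and -0.795 for E2f2 with E2f1. E2f7 and E2f8, the atypical pair, had an r of 0.191.

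The transcript length that the tables list for E2f2 varied with stage: 4786.1 to 4866 bases in the 4 GM libraries, 4560.4 to 4592.9 at DM 24h and 4631.7 to 4733.8 at DM 48h. That of E2f3 varied as well, from 4708.4 to 5057.4 bases over the 12 libraries. At DM 48h it was 4708.4 and 4719.5 with DMSO and 4825.3 and 4906.4 with PFI-3. FPKM values of E2f2 and E2f3 divide by these lengths, and their counts do not.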
